A study of Mus musculus with 6 samples.

Results

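The vomeronasal receptor genes were examined as a set of 354 autosomal regions of H3K9me3 signal, out of 58511 regions in all and 57177 on autosomes. A region was a member when the gene assigned to it had a name starting with Vmn1r or Vmn2r, pseudogenes included. The rule used the gene's name and not the signal of the region. H3K9me3, histone H3 trimethylated at lysine 9, was mapped by CUT&Tag, in which an antibody tethers the Tn5 transposase to chromatin so that DNA near the mark is cut and sequenced. The cells were Sca-1+/CD31+ endothelial progenitor cells (EPCs) selected with magnetic beads from the bone marrow of young adult C57BL/6J mice and cultured in EGM-2 medium. They came from male mice (M-EPC), female mice (F-EPC) and ovariectomized female mice (OVX-EPC), with 2 libraries per group. The cells were set aside in duplicate, and nothing states that the replicates came from separate animals or cultures, so the p-values measure only the spread between these libraries.

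Vomeronasal receptors are G protein-coupled receptors that sensory neurons of the vomeronasal organ use to detect pheromones and other social cues. Vmn1r genes encode V1R receptors, whose coding sequence lies in a single exon and which signal through Gnai2, while Vmn2r genes encode V2R receptors with a long extracellular domain, which signal through Gnao1. The genes stand in tandem clusters rich in repeats and pseudogenes, each neuron uses very few of them, and in cells outside the vomeronasal organ the clusters are kept silent, with H3K9me3 as a common mark of such heterochromatin. H3K9me3 signal does not measure expression, so nothing here says whether a receptor was transcribed.

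The members were assigned to 196 genes, 90 of the Vmn1r family and 106 of the Vmn2r family, with 145 and 209 regions. By name, 195 of the 559 autosomal Vmn1r and Vmn2r genes in the GENCODE M21 annotation had a region. The annotation holds 325 autosomal Vmn1r genes and 234 Vmn2r genes. Of the genes with a region, 101 had 1 region, and the pseudogene Vmn1r-ps151 had the most, 6. Names of pseudogenes took 140 regions. Most members did not sit on a gene: 271 were distal intergenic, 43 intronic, 32 in promoters (within 3 kb of an annotated start site), 6 just downstream of a gene and 2 exonic. The median distance to the start of the assigned gene was 14315 bp, 122 regions lay within 10 kb of it, and 64 overlapped the gene body. Of the intronic regions, 33 of 43 lay in an intron of the gene they were assigned to and the others in introns of another gene, such as 3 Vmn2r-ps111 regions on chromosome 14.

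Depth limited what single regions could show. The deposited signal of a library is its read count in each region scaled by 1 constant. Library totals ran from 288353 reads (F-EPC replicate 1) to 573821 reads (M-EPC replicate 2) in all regions, but the F-EPC totals count only part of the genome. The median member held 4 and 6 reads in the M-EPC replicates and 7 and 8 reads in the OVX-EPC replicates. Reads of F-EPC stopped partway through the genome, so F-EPC was compared only on chromosome 1, chromosomes 10 to 15 and the first part of chromosome 16, where 61 of the 354 members lie. In that part of the genome the F-EPC replicates were the deepest, with 288353 and 252356 reads. The M-EPC replicates held 200296 and 235301 there, and the OVX-EPC replicates 209015 and 223313. Over the 61 members the median was 11 and 9 reads in the F-EPC replicates, not comparable with the medians above, which span all 354 members. Chromosomes 4 to 7, which hold many clusters, and chromosomes 3, 17 and 18 were compared between OVX-EPC and M-EPC only. M-EPC replicate 1 stood apart, with 32.6% of its autosomal region reads in promoters against 29.3% in M-EPC replicate 2, 27.8% and 27.6% in the OVX-EPC replicates. The endothelial and haematopoietic genes Kdr, Cdh5, Pecam1, Tek, Vwf, Ptprc, Cd34 and Ly6a cannot check the cell type through a silencing mark, and 5 of the 8 had a region.

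Sequences of 4 members show what kind of DNA carried the reads. Each is the central 300 bases of a region, in mm10 (GRCm38), plus strand, 5' to 3', with repeats masked in the reference in capitals. They are the strongest Vmn1r region (assigned to Vmn1r-ps2, chr4:3090041-3090340), the strongest Vmn2r region (Vmn2r83, chr10:79417225-79417524), the region with the smallest p-value between F-EPC and M-EPC (Vmn1r193, chr13:22216195-22216494) and the strongest promoter region (Vmn1r-ps123, chr13:22996736-22997035).
Vmn1r-ps2: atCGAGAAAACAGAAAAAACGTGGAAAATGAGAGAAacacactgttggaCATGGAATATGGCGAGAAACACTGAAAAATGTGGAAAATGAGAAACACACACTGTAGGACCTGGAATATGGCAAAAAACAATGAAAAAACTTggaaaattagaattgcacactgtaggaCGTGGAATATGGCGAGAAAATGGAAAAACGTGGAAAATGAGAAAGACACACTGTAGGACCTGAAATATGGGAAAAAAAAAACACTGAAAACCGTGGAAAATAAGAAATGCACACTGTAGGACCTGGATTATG
Vmn2r83: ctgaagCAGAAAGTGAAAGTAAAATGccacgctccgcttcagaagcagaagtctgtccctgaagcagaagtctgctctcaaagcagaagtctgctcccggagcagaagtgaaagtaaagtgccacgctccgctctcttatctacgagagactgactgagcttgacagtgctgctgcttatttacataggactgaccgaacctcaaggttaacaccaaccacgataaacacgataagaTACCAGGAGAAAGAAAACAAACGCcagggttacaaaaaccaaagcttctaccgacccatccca
Vmn1r193: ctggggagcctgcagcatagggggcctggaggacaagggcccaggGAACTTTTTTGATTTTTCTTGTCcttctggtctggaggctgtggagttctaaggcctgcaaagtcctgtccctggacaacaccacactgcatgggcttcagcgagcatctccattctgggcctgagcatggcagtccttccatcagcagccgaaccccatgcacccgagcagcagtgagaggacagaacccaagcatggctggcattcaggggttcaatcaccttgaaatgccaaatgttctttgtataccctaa
Vmn1r-ps123: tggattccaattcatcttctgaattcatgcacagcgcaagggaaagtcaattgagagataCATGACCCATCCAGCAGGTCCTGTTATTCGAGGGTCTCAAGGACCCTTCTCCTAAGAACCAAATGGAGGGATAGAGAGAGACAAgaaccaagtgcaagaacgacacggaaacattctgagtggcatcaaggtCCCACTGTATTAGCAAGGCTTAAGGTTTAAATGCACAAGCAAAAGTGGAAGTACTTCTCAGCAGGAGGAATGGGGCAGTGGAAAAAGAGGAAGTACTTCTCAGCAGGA

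The Vmn1r-ps2 sequence carries the letters GGAATATGG, which mouse major satellite DNA of the pericentromere repeats. Searched on both strands, these letters were found in 4 of the 354 members (1.13%) and in 0.395% of all autosomal regions. The region next to Vmn1r-ps2 held 3 matches, and regions of Vmn1r208, Vmn1r-ps19 and Vmn1r-ps48 held 1 each. Such a match is a description of the letters in the region. The Vmn2r83 and Vmn1r193 stretches were mostly outside masked repeats.

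Members were repeat-rich. The median member was masked over 52.4% of its length, compared with 21% for all autosomal regions, 35.3% for other distal intergenic regions and 51.4% for the 726 regions of olfactory receptor (Olfr) genes, the other large family of chemosensory receptors. GC content did not set them apart, with a median of 48.4% against 48.5% for all autosomal regions. Of the 25-base windows in a member, matching the 25-base reads, a median of 61.4% occurred once in the genome, compared with 71.4% in Olfr regions and 92.6% in a sample of the other regions. Reads of low mapping quality had been discarded, so the signal of members with few unique windows rests on part of their length.

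OVX-EPC carried a larger share of H3K9me3 reads in vomeronasal regions than M-EPC. Of the reads in autosomal regions, 0.582% and 0.640% fell in members in the M-EPC replicates and 0.820% and 0.834% in the OVX-EPC replicates. Both OVX-EPC values were above both M-EPC values. The means were 0.611% ± 0.0409 (SD, n = 2) and 0.827% ± 0.00982 (SD, n = 2), a ratio of 1.35, with p = 0.3333 in a two-sided exact permutation test, the smallest value that 2 against 2 libraries allow. The Wilson 95% intervals, which cover counting error only, ran from 0.561% to 0.661% over the M-EPC libraries and from 0.795% to 0.859% over the OVX-EPC libraries. Without M-EPC replicate 1 the log2 ratio was 0.37, and without M-EPC replicate 2 it was 0.51, compared with 0.44 with both. In bulk libraries, more cells with the mark and more of the mark per cell cannot be told apart.

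**Figure D1:**
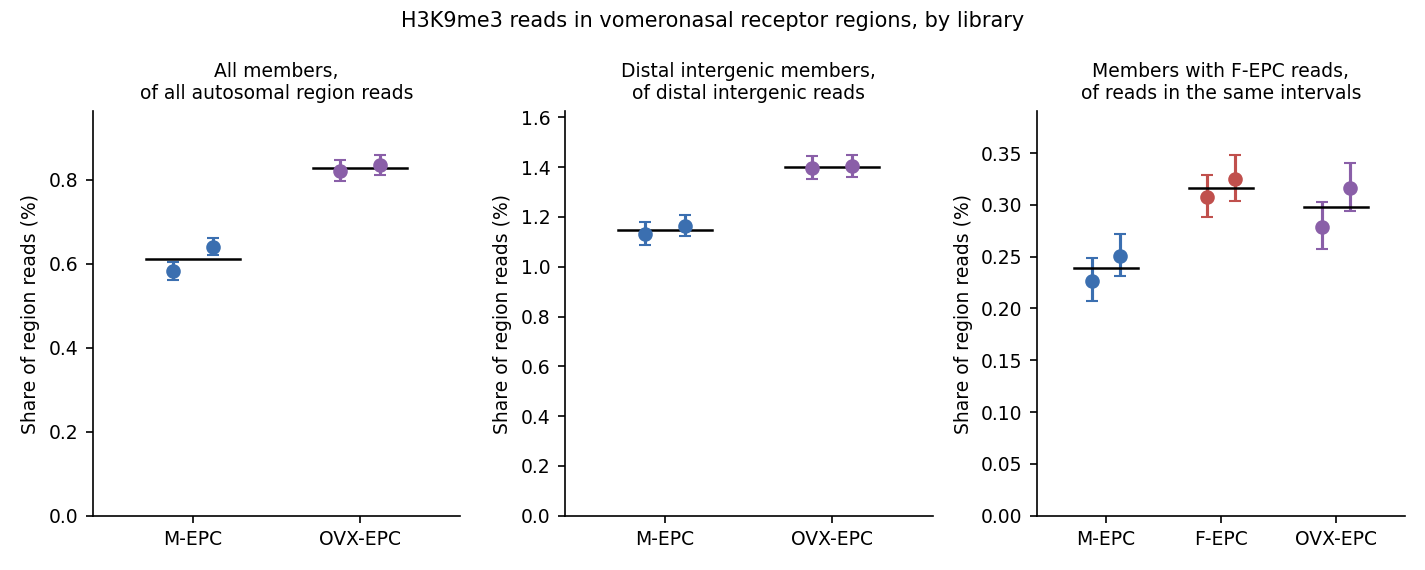
Share of H3K9me3 region reads (%) in vomeronasal receptor regions for each library (points, with Wilson 95% intervals of counting error) and the group mean (black line): all 354 members among autosomal region reads, the 271 distal intergenic members among distal intergenic reads, and the 61 members with F-EPC reads among reads of the same part of the genome. The M-EPC points lie lowest in every panel, and in the right panel F-EPC (0.308% and 0.325%) and OVX-EPC (0.279% and 0.316%) overlap.

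The kind of region moved with this difference. Distal intergenic regions as a whole took 44.0% and 46.8% of M-EPC reads and 49.4% and 49.9% of OVX-EPC reads, and most members are of this class. Counted only among distal intergenic reads, the 271 members of that class held 1.13% and 1.16% in M-EPC against 1.40% and 1.40% in OVX-EPC, a ratio of 1.22 (exact permutation p = 0.3333), again with no overlap. Olfr regions showed a ratio of 1.34 among all autosomal reads and 1.23 among distal intergenic reads, close to those of the vomeronasal regions, and the difference between the families was not tested. Regions of zinc finger genes (Zfp), another clustered family rich in H3K9me3, had a ratio of 0.881. By receptor family, the ratio was 1.37 for Vmn1r regions and 1.33 for Vmn2r regions, with no overlap in either. Regions named for pseudogenes had a ratio of 1.36 and the other members 1.35.

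By class, the 32 promoter members held 0.0289% ± 0.00337 (SD, n = 2) of M-EPC reads and 0.0441% ± 0.000434 (SD, n = 2) of OVX-EPC reads, a ratio of 1.53. All promoter regions together went the other way, from 31.0% ± 2.38 (SD, n = 2) in M-EPC to 27.7% ± 0.146 (SD, n = 2) in OVX-EPC, a ratio of 0.893. The 2 sets are not alike, so this comparison is rough. Promoter members lay a median of 1664 bp from the start site and were masked over 26.8% of their length. For all promoter regions the medians were 313 bp and 5.75%. The 9 promoter members within 1 kb of a start site had a ratio of 1.48. The 43 intronic members had a ratio of 1.42 and the 271 distal intergenic members 1.33 among all autosomal reads. In none of these classes did the libraries of the groups overlap, and each exact permutation p was 0.3333.

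Over all autosomes, both OVX-EPC libraries were above both M-EPC libraries in members rich and poor in repeats. Members masked over at least 50% of their length had a ratio of 1.42 and the others 1.30, while all autosomal regions so masked had a ratio of 1.10. Members at or above the median in unique 25-base windows had a ratio of 1.32 and those under it 1.39. In the part of the genome with F-EPC reads, the 24 members masked over at least 50% (ratio 1.25) and the 21 under the median in unique windows (ratio 1.16) overlapped between OVX-EPC and M-EPC. The 231 other regions lying within the spans of the vomeronasal clusters but assigned to other genes had a ratio of 1.00, with overlapping libraries. Among these, the 114 distal intergenic ones had a ratio of 1.18, with both OVX-EPC libraries above both M-EPC libraries.

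Members within 1 Mb of each other on a chromosome were joined into 29 clusters, named here by chromosome and a letter in order along it. In 26 of the 29 the mean OVX-EPC share was above the mean M-EPC share. In 19 both OVX-EPC libraries were above both M-EPC libraries, and in 0 both were below. All 11 clusters of at least 10 regions were among the 19, with ratios from 1.23 to 1.98. For comparison, 31.5% of the 1 Mb bins of the autosomes that held no member and at least 100 reads had both OVX-EPC libraries above both M-EPC libraries. These bins differ from the clusters in length, number of reads and classes of region, so the comparison is rough. Single clusters have 2 libraries per group, so no exact permutation p goes below 0.3333.

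**Figure D2:**
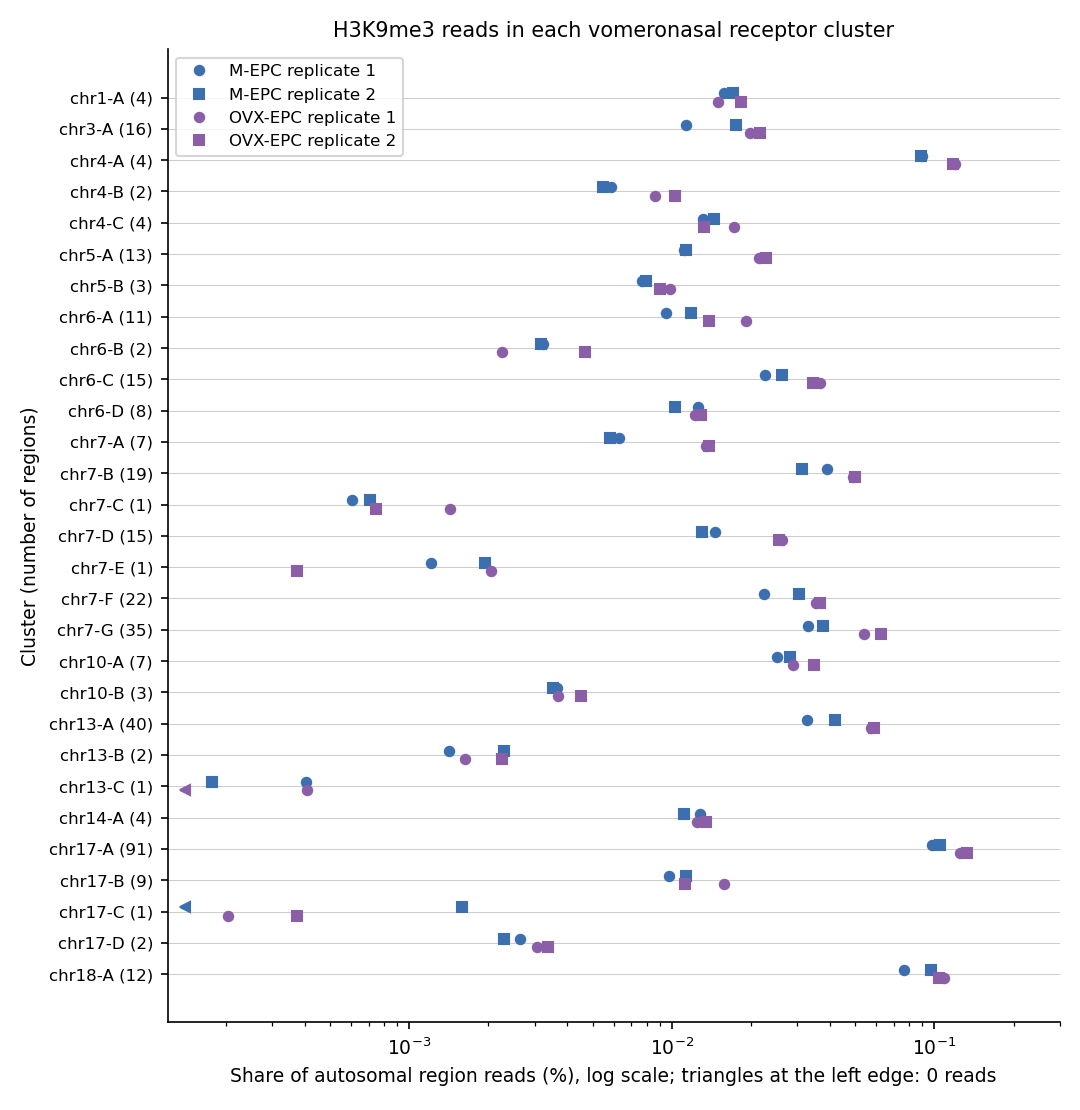
Share of autosomal region reads (%, log scale) in each of the 29 vomeronasal receptor clusters, with the number of regions in brackets. Blue points are the M-EPC libraries and purple points the OVX-EPC libraries (circle replicate 1, square replicate 2, and triangles at the left edge stand for 0 reads). The OVX-EPC points lie to the right of the M-EPC points in all 11 clusters of at least 10 regions.

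The largest cluster, chr17-A (chr17:18065592-21350956), held 91 regions of 36 genes, 76 of them Vmn2r and 15 Vmn1r. It held 484 and 594 reads in the M-EPC replicates and 610 and 713 reads in the OVX-EPC replicates. As a share of autosomal reads this was 0.101% ± 0.00497 and 0.129% ± 0.00619 (SD, n = 2 each), a ratio of 1.27. The Vmn2r cluster chr7-G (chr7:84954426-87081634, 35 regions of 21 genes) held 163 and 213 reads in M-EPC against 264 and 334 in OVX-EPC, a ratio of shares of 1.65. The Vmn2r cluster chr7-F (chr7:41463959-43056101, 22 regions of 12 genes) held 111 and 173 reads in M-EPC against 173 and 195 in OVX-EPC, a ratio of shares of 1.36. Reads are not scaled for library size, while the shares are, and in all of these clusters the shares of the groups did not overlap.

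Some smaller clusters had larger ratios. The 7 regions of chr7-A held 31 and 33 reads in M-EPC against 66 and 74 in OVX-EPC, a ratio of shares of 2.26, with no overlap. The 13 Vmn2r regions of chr5-A held 55 and 64 reads in M-EPC against 105 and 122 in OVX-EPC, a ratio of shares of 1.98. The 15 Vmn1r regions of chr7-D held 72 and 74 reads in M-EPC against 128 and 137 in OVX-EPC, a ratio of shares of 1.88. Over the 40 Vmn1r regions of chr13-A the ratio was 1.56. Among the clusters of at least 10 regions the lowest ratio was 1.23, over the 12 regions of chr18-A. The clusters with a ratio under 1 were chr17-C, chr13-C and chr7-E, each a single region, with ratios of 0.364, 0.704 and 0.766 and overlapping libraries. The chr4-A and chr18-A clusters lie at the centromeric ends of their chromosomes, and the Vmn1r-ps2 regions of chr4-A alone held 443 and 505 reads in the M-EPC replicates and 585 and 626 in the OVX-EPC replicates. Together the 16 regions of the 2 clusters had a ratio of 1.28. Without them the 338 remaining members had a ratio of 1.39 between OVX-EPC and M-EPC.

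Reads were unevenly spread, with the 10 strongest members holding 30.8% of all member reads of M-EPC and OVX-EPC. Of these 10, 4 are Vmn1r-ps2 regions of chr4-A, 3 are Vmn1r-ps151 regions of chr18-A, and the others belong to Vmn1r-ps60, Vmn2r83 and Vmn1r1. The strongest region (chr4:3089991-3090390, distal intergenic, 14202 bp from the start of Vmn1r-ps2) had normalized read counts of 161 and 155 in the M-EPC replicates and 251 and 248 in the OVX-EPC replicates. The groups did not overlap, and the log2 fold change was 0.66 ± 0.197 (SE), with adjusted p = 0.148 in limma. The count-based tests called this region, as given under the dependence on processing. The other 3 Vmn1r-ps2 regions among the strongest 10, which carry none of the satellite letters searched, had log2 fold changes of 0.10, 0.21 and 0.16 with limma adjusted p-values from 0.666 to 0.841. Vmn1r-ps60 (chr7:12010407-12010806, 5341 bp from the start) had normalized read counts of 104 and 68.7 in M-EPC against 125 and 136 in OVX-EPC. On the log2 scale the fold change was 0.62 ± 0.228 (SE) with a limma adjusted p of 0.210.

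Single regions did not pass the test between OVX-EPC and M-EPC. Members with a value of at least 10 in at least 2 of the 4 libraries could be tested, 98 of the 354, and 0 of them differed at a limma adjusted p under 0.05. The background was 0.449% of all 16931 regions tested, or 0.0473% with OVX-EPC higher. At an unadjusted p under 0.05 limma gave 15 members higher in OVX-EPC and 1 lower, while 5.07% of all tested regions were higher and 11.1% lower at that level. A weak member could enter the test through the group where it was higher, as Vmn2r-ps87 did through OVX-EPC and Vmn2r26 through M-EPC. These direction counts are therefore a description only. edgeR and DESeq2 on the recovered reads called 1 of 117 members each, and 97 and 6 of all 18880 regions tested. After the Vmn1r-ps2 region, the smallest p-values among the higher members belonged to Vmn2r-ps87 and Vmn1r-ps60. The Vmn2r-ps87 region (chr7:86872473-86872872) had 2 and 6 reads in M-EPC against 17 and 11 in OVX-EPC. On the log2 scale the fold change was 1.68 ± 0.620 (SE) with a limma adjusted p of 0.209. The member lower in OVX-EPC at an unadjusted p under 0.05 lay by Vmn2r26 (chr6:124019751-124020150). It had normalized read counts of 15 and 15.4 in M-EPC against 6.07 and 5.67 in OVX-EPC. The log2 fold change was -1.24 ± 0.452 (SE) with a limma adjusted p of 0.209. The next lower members, Vmn2r96 (chr17:18558669-18559068) and Vmn2r125 (chr4:156342954-156343353), had log2 fold changes of -0.43 and -0.27 and limma adjusted p-values of 0.429 and 0.665.

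Taken without any filter, the members as a group lay toward OVX-EPC. The values of the groups did not overlap, with OVX-EPC higher, in 124 of the 354 members (35.0%), against a background of 20.6% of all autosomal regions and 25.7% of distal intergenic ones. They did not overlap with OVX-EPC lower in 20 members (5.65%), against 20.5% of all autosomal regions and 15.8% of distal intergenic ones. The median log2 fold change was 0.40 over the 354 members, compared with -0.0032 over all autosomal regions and 0.15 over all distal intergenic regions. Regions of a cluster share neighbours, repeats and libraries, so they are not replicates and these counts carry no test.

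**Figure D3:**
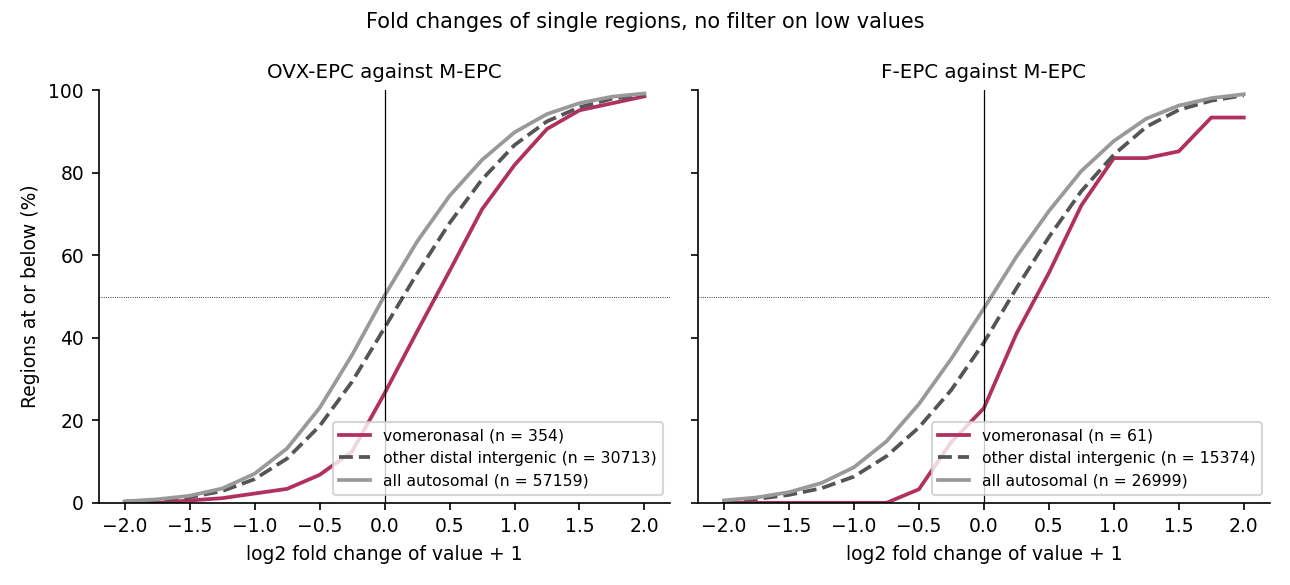
Cumulative percentage of regions at or below each log2 fold change of value + 1, with no filter on low values, for vomeronasal receptor regions, other distal intergenic regions and all autosomal regions. The left panel compares OVX-EPC with M-EPC (354 members) and the right panel F-EPC with M-EPC (61 members). The vomeronasal line lies to the right of both others around 0, where it reaches a median of 0.40 and 0.39.

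Among the promoter members, the 6 with the most reads were weak. The strongest, at Vmn1r-ps123 (chr13:22996686-22997085, 186 bp from the start site), had normalized read counts of 8.6 and 9.94 in M-EPC against 14.2 and 13.2 in OVX-EPC. The log2 fold change was 0.52 ± 0.404 (SE) with a limma adjusted p of 0.525. The promoter regions of Vmn2r-ps3, Vmn2r104 and Vmn1r-ps25 and a second one of Vmn1r-ps123 had between 6 and 17 reads in every M-EPC and OVX-EPC library. The Vmn2r-ps12 promoter region (chr3:64742377-64742776) had 3 and 7 reads in M-EPC against 10 and 15 in OVX-EPC. The log2 fold change was 1.22 ± 0.575 (SE) with a limma adjusted p of 0.294. Over the 32 promoter members the groups did not overlap with OVX-EPC higher in 13 and with OVX-EPC lower in 1, against 20.6% and 20.5% of all autosomal regions. That background spans every class of region, and no share over promoter regions alone was computed.

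F-EPC, compared over the 61 members with reads in it, also carried a larger vomeronasal share than M-EPC. The members held 0.227% and 0.251% of the reads of this part of the genome in the M-EPC replicates and 0.308% and 0.325% in the F-EPC replicates. The means were 0.239% ± 0.0170 and 0.317% ± 0.0123 (SD, n = 2 each), a ratio of 1.33, with no overlap and an exact permutation p of 0.3333. Of the difference of 0.0779 percentage points between these means, 0.0634 lay in the chr13-A cluster described below. Among distal intergenic reads the ratio was 1.16. The 209 Olfr regions in this part of the genome had ratios of 1.23 among all its reads and 1.16 among distal intergenic reads, with no overlap. Zfp regions there had a ratio of 0.734. The difference between the families was not tested. Over the same 61 members OVX-EPC held 0.279% and 0.316%, a ratio of 1.25 to M-EPC. Both comparisons use the same M-EPC libraries, so they are not independent of each other. The 44 Vmn1r regions, 40 of them in chr13-A, had a ratio of 1.49 between F-EPC and M-EPC and the 17 Vmn2r regions 1.13. In the covered part of the genome distal intergenic regions took 54.2% and 52.9% of F-EPC reads and 46.5% and 49.4% of M-EPC reads.

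The chr13-A cluster (chr13:22050800-23179192), with 40 Vmn1r regions of 28 genes, held most of these members. It held 162 and 236 reads for M-EPC, 439 and 393 for F-EPC, then 280 and 315 for OVX-EPC. As a share of covered reads these were 0.0809% and 0.100% for M-EPC, 0.152% and 0.156% for F-EPC, then 0.134% and 0.141% for OVX-EPC. No 2 of the groups overlapped. The ratio was 1.70 for F-EPC and 1.52 for OVX-EPC to M-EPC, and 0.893 for OVX-EPC to F-EPC, each with an exact permutation p of 0.3333. Of the 7 clusters in this part of the genome, chr13-A was the one in which the F-EPC and M-EPC libraries did not overlap. As a share of covered reads, the same held for OVX-EPC and M-EPC, while among all autosomal reads chr10-A (ratio 1.19) and chr10-B (ratio 1.14) also had both OVX-EPC libraries above both M-EPC libraries. The other 6, chr1-A, chr10-A, chr10-B, chr13-B, chr13-C and chr14-A, had 1 to 7 regions each, and their ratios of F-EPC to M-EPC ran from 0.868 to 2.16, the highest in chr13-C, a single region of 1 to 6 reads in these libraries. The 13 regions within the spans of the 7 clusters that belong to other genes had a ratio of 1.69 between F-EPC and M-EPC, with no overlap.

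**Figure D4:**
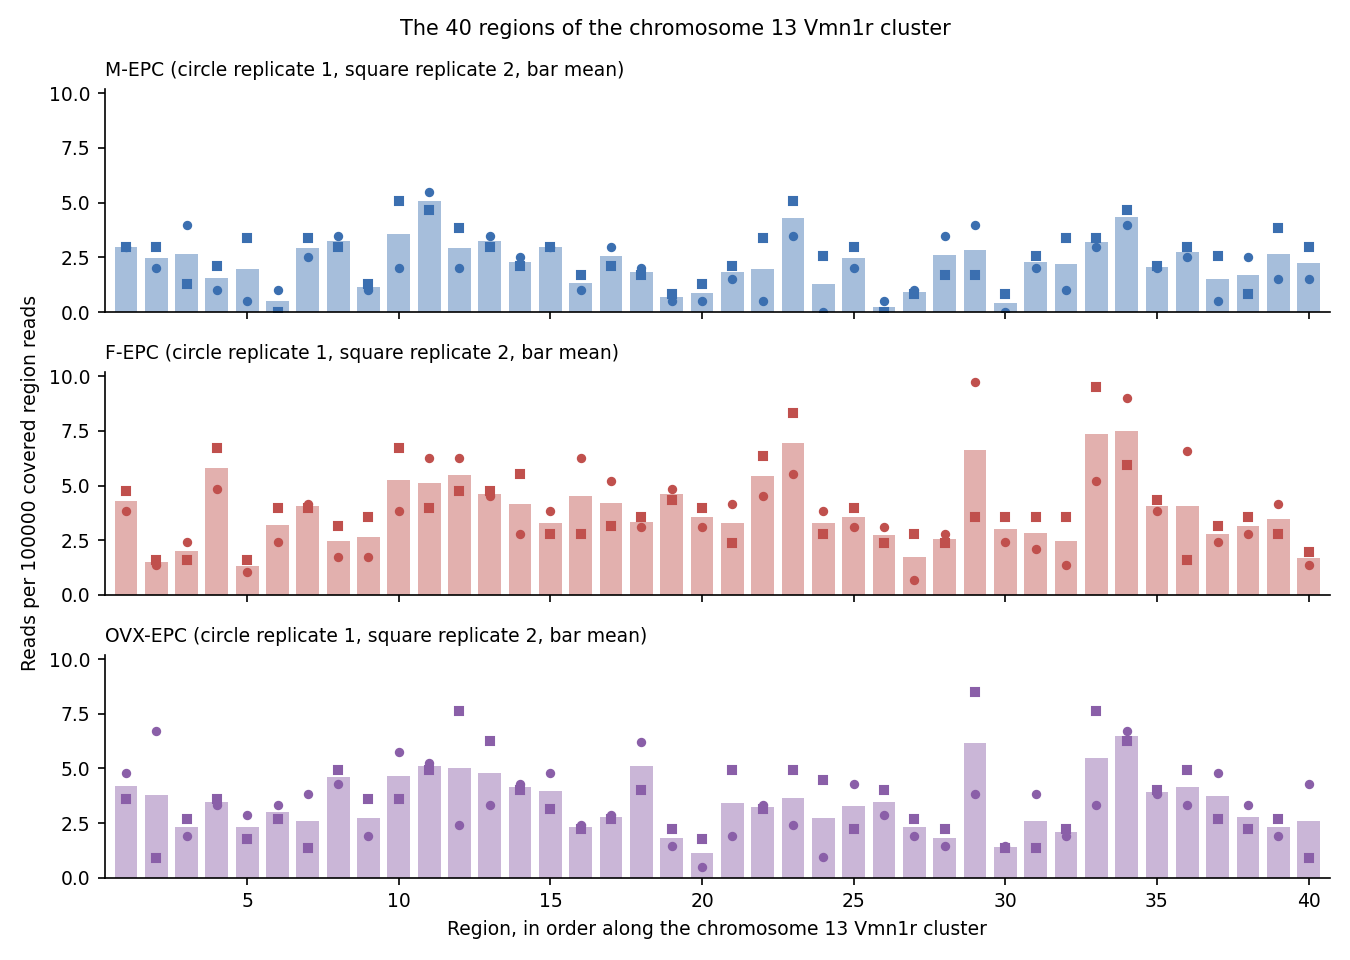
Reads per 100000 reads in covered regions for each of the 40 regions of the chr13-A Vmn1r cluster, in order along the chromosome, for M-EPC, F-EPC and OVX-EPC (circle replicate 1, square replicate 2, bar the mean of both). The bars of F-EPC are taller than those of M-EPC along most of the cluster, and single regions rest on few reads.

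Within chr13-A, 23 of the 40 regions had F-EPC values above both M-EPC values and 1 had F-EPC values below them. Over all 61 members these counts were 29 (47.5%) and 5 (8.20%), against backgrounds of 22.3% and 20.9% of the autosomal regions in this part of the genome. Among distal intergenic regions there the backgrounds were 27.5% and 15.7%. The median log2 fold change over the 61 members was 0.39, compared with 0.055 over all autosomal regions and 0.21 over distal intergenic regions there. Of the 22 members that limma could test, 0 differed at an adjusted p under 0.05, with a background of 1.79% of regions tested, 0.172% with F-EPC higher and 1.62% lower. At an unadjusted p under 0.05 limma gave 4 members higher in F-EPC and 0 lower, against 6.23% and 16.5% of all regions tested. Here too weak members could enter the test through the group where they were higher. edgeR called 0 of 24 members and DESeq2 0 of 24, and no count over all regions is given beside these. Fits that left 1 M-EPC library are listed under the dependence on processing, where only their effect sizes are to be read. In them, members low in M-EPC could be tested only through both F-EPC libraries.

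The member with the smallest p was classed as downstream of Vmn1r193 (chr13:22216145-22216544). It had normalized read counts of 2.50 and 5.07 in M-EPC against 11.2 and 15.7 in F-EPC, a log2 fold change of 1.63 ± 0.582 (SE) and a limma adjusted p of 0.120. In the table of OVX-EPC and F-EPC the same region had 7.95 and 8.61 in OVX-EPC and 11.4 and 15.9 in F-EPC, so OVX-EPC lay below F-EPC. A promoter region of Vmn1r-ps123 (chr13:22993864-22994263, 2237 bp from the start) had 7.5 and 8.11 in M-EPC against 12 and 22.1 in F-EPC, with a limma adjusted p of 0.170. A region of Vmn1r-ps110 (chr13:22635757-22636156) had 1.25 and 8.11 in M-EPC against 10.38 and 14.8 in F-EPC, with a limma adjusted p of 0.174. Among the tested members with lower F-EPC values, the 3 smallest p-values belonged to 2 regions of Vmn1r1 on chromosome 1, with log2 fold changes of -0.67 and -0.45, and the strongest Vmn2r83 region, with -0.22. Their limma adjusted p-values ran from 0.312 to 0.540.

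The strongest regions of this part of the genome, assigned to Vmn2r83 and Vmn1r1, had small fold changes between the groups. The Vmn2r83 region chr10:79417175-79417574, which is 51157 bp from the gene's start, held 70 and 88 reads for M-EPC, 80 and 97 for F-EPC, then 72 and 100 for OVX-EPC. Its log2 fold changes were -0.22 ± 0.211 (SE) between F-EPC and M-EPC and 0.10 ± 0.230 (SE) between OVX-EPC and M-EPC. The Vmn1r1 region chr1:182170277-182170676, masked over 93.0% of its length, held 45 and 52 reads for M-EPC, 59 and 71 for F-EPC, then 33 and 52 for OVX-EPC. Its log2 fold change between F-EPC and M-EPC was 0.028 ± 0.240 (SE). The second Vmn2r83 region and the Vmn2r-ps111 region in an intron of another gene on chromosome 14 had log2 fold changes of 0.11 and 0.12 in that comparison. The Vmn2r82 region chr10:79407720-79408119 held 14 and 18 reads for M-EPC, 27 and 34 for F-EPC, then 24 and 30 for OVX-EPC. Its log2 fold change was 0.52 ± 0.324 (SE) for F-EPC and 0.71 ± 0.319 (SE) for OVX-EPC against M-EPC, with limma adjusted p-values of 0.333 and 0.278.

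OVX-EPC and F-EPC overlapped over the members as a whole. The 61 members held 0.298% ± 0.0263 (SD, n = 2) of the covered reads in OVX-EPC and 0.317% ± 0.0123 (SD, n = 2) in F-EPC, a ratio of 0.940 with overlapping libraries and an exact permutation p of 0.6667. The Vmn1r regions had a ratio of 0.908, with both OVX-EPC libraries below both F-EPC libraries (exact permutation p = 0.3333), and the Vmn2r regions 0.991 with overlap. Of the 26 members tested, 0 differed in limma, against a background of 0.0127%, and at an unadjusted p under 0.05 limma gave 0 higher and 1 lower, against 3.49% and 2.72% of all regions tested. edgeR and DESeq2 each called 0 of 29 members, and no count over all regions is given beside these. The groups did not overlap with OVX-EPC higher in 6 members (9.84%) and with OVX-EPC lower in 13 (21.3%). The backgrounds were 16.0% and 17.1% of the autosomal regions, and 14.5% and 18.6% of distal intergenic ones. Of the 13 with OVX-EPC lower, 11 were in chr13-A. The member with the smallest p was a second Vmn1r-ps110 region (chr13:22641849-22642248), with normalized read counts of 13 and 19.6 in F-EPC against 5.68 and 11.8 in OVX-EPC. The log2 fold change was -0.88 ± 0.412 (SE) with a limma adjusted p of 0.778. Vmn1r205 (chr13:22583603-22584002) had 11.4 and 10.27 in F-EPC, with 3.41 and 5.38 for OVX-EPC and a limma adjusted p of 0.841. The members with the smallest p in the higher direction were a Vmn1r1 region (0.72 ± 0.377, log2 fold change and SE), Vmn2r83 (0.29 ± 0.211) and Vmn1r197 (0.87 ± 0.646), with limma adjusted p-values from 0.790 to 0.841.

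Other genes of vomeronasal sensing were looked at beside the receptors: the signalling genes Gnai2, Gnao1, Gng2, Gng8 and Itpr3, the ion channels Ano1 and Ano2, formyl peptide receptors, the transcription factors of these neurons, and the Mup and Esp genes, which encode major urinary proteins and exocrine secreted peptides that vomeronasal neurons detect. In all 38 genes of the list had 79 regions. Between OVX-EPC and M-EPC 18 of these could be tested, and 0 passed limma's adjusted threshold, against 0.449% of all regions tested. At an unadjusted p under 0.05, 3 were higher and 0 lower, against 5.07% and 11.1% of all regions tested. Without a filter the median log2 fold change of the 79 regions was 0.28, compared with 0.40 for the receptors and -0.0032 for all autosomal regions. The 8 regions of Esp31 held 15 and 34 reads in M-EPC against 49 and 52 in OVX-EPC. The 5 regions of Gng2, the G protein gamma subunit gene, held 81 and 96 reads in M-EPC against 56 and 74 in OVX-EPC. Of the list, 10 regions lay where F-EPC could be compared, and their median log2 fold change between F-EPC and M-EPC was -0.35.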

How the data were processed

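H3K9me3 CUT&Tag libraries (25-base paired-end reads) of the 3 EPC groups, 2 each, were analysed from 3 tables, 1 per pair of groups. The study's methods give Bowtie2 alignment to mm10, Picard removal of duplicates, a mapping quality of at least 10, HOMER, MACS and ChIPseeker. The submitters' processing notes name BWA and MACS2 instead. The deposited signal of a region is a read count that the authors divided by 1 size factor per library and table. Dividing back gave whole reads for 100% of values, within 0.001. The authors' own fold changes and p-values were not used. Assignment of a region to a gene and class is the authors' annotation, with distances from GENCODE M21 on GRCm38.

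The members, gene lists and clusters were chosen with earlier results of these data known. Regions with values of at least 10 in at least 2 of 4 libraries were tested with limma 3.58.1 (mean-variance trend). P-values were Benjamini-Hochberg adjusted over all regions tested in the comparison. The test used log2(value + 1), a scale that understates changes of weak regions. The filter lets a weak region in through the group where it is higher, so direction counts of tested regions are descriptions. edgeR 4.0.16 and DESeq2 1.42.0 on the recovered reads, other filters, scalings and member sets, and leaving out each library were alternatives. The limma step was also run on simulated counts with known changes. These covered only regions that passed the filter, at a fixed level of spread, so they do not speak to weaker members. Read shares used two-sided exact permutation tests over libraries, with Wilson 95% intervals that cover counting error only. The reads of F-EPC replicate 1 ended at chr16:30556738-30557137 and those of replicate 2 at chr3:110808454-110808853, and F-EPC comparisons used only regions up to the first of these. Named regions were, per comparison and direction, the 3 smallest p-values where none passed, the 10 with most reads, the 6 promoter regions with most reads, and the 5 with most reads among those with F-EPC reads. Others named (Vmn2r121, Vmn2r-ps139, members with GGAATATGG) were chosen after their values were seen. The smaller clusters named one by one, such as chr7-A, chr5-A and chr7-D, and the genes Esp31 and Gng2 were also picked outside these rules. Sequences are from GRCm38.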

Additional observations from a re-analysis of the deposited data

Results flagged for a closer look

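A Vmn2r121 region on chromosome X lay outside the autosomal set and held 27 reads in M-EPC and OVX-EPC together, above the 3 reads that a count of 0 allows. Its M-EPC libraries held 4 and 6 reads against 6 and 11 in OVX-EPC. A Vmn2r-ps139 region on chromosome Y held 5 reads, 4 and 1 in M-EPC and 0 in both OVX-EPC libraries. Male and female cells differ in their X and Y chromosomes, so these reads do not compare the groups as those of autosomal members do. Both were noted because they are receptor regions that no comparison used, and neither was tested as a member.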

How the results depend on the processing

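With both libraries of each group kept, counts of differing members stayed at 0 except in the settings named next. One OVX-EPC against M-EPC member, the Vmn1r-ps2 region chr4:3089991-3090390, was called in 3 settings. These were a minimum value of 30 (1 of 14 members tested, log2 fold change 0.66), edgeR (1 of 117, 0.82) and DESeq2 (1 of 117, 0.83). For edgeR and DESeq2 the counts over all regions tested stand beside the single-region results above. For the minimum of 30 no count over all regions is given, so that call has no background beside it. Between F-EPC and M-EPC 3 members were called without M-EPC replicate 2, Vmn1r193 with 2.02 and Vmn1r-ps110 with 2.57 among them, and leaving out single libraries gave 0 to 3, with the lone library of a group assumed to vary like the other group. A group left with 1 library has no spread of its own, so these counts are not a test and no conclusion is drawn from them. Vmn1r193 and Vmn1r-ps110 had values under 10 in both M-EPC libraries, so they passed the filter only through F-EPC. No count over all regions is given beside the 3. The log2 fold change of the strongest Vmn2r83 region between F-EPC and M-EPC turned to 0.017 without F-EPC replicate 1 and was -0.46 without F-EPC replicate 2.

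The median log2 fold change of tested members, which counts only members that passed the filter, was 0.37 between F-EPC and M-EPC. It was 0.57 with TMM scaling, 0.071 with a minimum of 30 (4 members), 0.51 with edgeR, 0.51 with DESeq2, 0.81 for members within 10 kb and 0.071 without pseudogenes. Leaving out single libraries gave 0.079 to 0.38. Between OVX-EPC and M-EPC it was 0.36, then 0.51 with TMM, 0.40 without a filter, 0.17 with a minimum of 30 (14 members), 0.44 with edgeR, 0.47 with DESeq2, 0.10 in covered regions, 0.41 within 10 kb and 0.32 without pseudogenes, with 0.24 to 0.37 on leaving out single libraries. Between OVX-EPC and F-EPC it was -0.075, and 0.072 without pseudogenes. The filter let different members into some of these settings, and the cause of these moves was not tested. TMM moved the median of all autosomal regions tested from -0.17 to -0.019 (OVX-EPC against M-EPC) and from -0.20 to 0.0022 (F-EPC against M-EPC).

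The log2 ratio of read shares was 0.41 between F-EPC and M-EPC, 0.57 for members within 10 kb and 0.22 among distal intergenic reads, a setting chosen after seeing the data. Between OVX-EPC and M-EPC it was 0.44, 0.29 among distal intergenic reads and 0.32 in covered regions. Leaving out single libraries gave 0.34 to 0.48 and 0.37 to 0.51. A fit with the replicate number as a block left every count at 0 (medians 0.37, 0.36 and -0.075). Same-numbered libraries did not deviate together over regions (correlations -0.052, -0.018 and -0.031). With so few reads per region, counting error would hide a weak shared deviation, so this cannot decide whether the numbers pair libraries. The median member held 4 to 8 reads in an M-EPC or OVX-EPC library, which limits the precision of single members.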
